A study of Mus musculus with 3 samples.

Results

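The cells described here are 442 capillary endothelial cells (ECs) of the mouse heart, taken from 2800 ECs among 6915 non-cardiomyocytes with at least 200 detected genes. They were selected on their own unique molecular identifiers (UMIs, counted transcripts). A cell was an EC when it held at least 3 UMIs of *Pecam1*, *Cdh5*, *Kdr* and *Egfl7* together and more than 2 times as many as of fibroblast (FB), blood cell or mural genes. An EC was kept when it held at least 3 UMIs of *Car4*, *Aplnr* and *Timp4* together. It could hold no more than 1 UMI of the arterial genes *Gja4*, *Gja5*, *Sema3g* and *Gkn3*, no more than 1 of *Vwf*, none of the endocardial gene *Npr3*, and no more than 1 of *Apln*, *Mest* and *Pcdh17*, which mark angiogenic ECs. The levels of these genes therefore describe the choice and are no result.

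Capillary ECs form the wall across which the heart muscle receives oxygen and fuel. In the heart they take up fatty acids: lipoprotein lipase is held on the luminal surface by GPIHBP1 and frees fatty acids from lipoproteins, CD36 takes them up, and fatty acid binding proteins carry them through the cell. *Car4* encodes a membrane-anchored carbonic anhydrase of capillary ECs, *Aplnr* the receptor of the peptide apelin, and *Timp4* an inhibitor of matrix metalloproteases. In the GENCODE annotation of build GRCm38 they lie on separate chromosomes, *Car4* at chr11:84957786-84966044 on the plus strand, *Aplnr* at chr2:85136225-85139923 on the plus strand and *Timp4* at chr6:115241892-115252205 on the minus strand.

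Hearts came from wild-type mice before or after transverse aortic constriction (TAC), a ligature on the aortic arch that overloads the left ventricle. The 0-week library is labelled Control and gives the healthy phase. The libraries at 2 and 12 weeks are labelled TAC and give the adaptive hypertrophy and heart failure phases. According to the methods, male C57BL/6J JCL mice were operated at 8 weeks of age. The hearts were flushed and the atria removed. The ventricles were minced and digested with collagenase in a warm bath, and non-cardiomyocytes were collected on a Percoll gradient. Each phase was 1 droplet library. The number of hearts behind a library is not given in the sources used here, nor is whether the 0-week mice were operated. The TAC mice also aged between operation and sampling, and no control library of matching age is present. Phase, library, age and mice therefore cannot be told apart, and no test between phases could be made. Every interval below is a 95% interval for counting error only, which leaves out the spread among cells and mice.

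The healthy library gave 174 capillary ECs among 1015 ECs and 3892 cells, the 2-week library 235 among 1541 ECs and 2231 cells, and the 12-week library 33 among 244 ECs and 792 cells. Their UMIs summed to 434679, 519053 and 59921. A healthy capillary EC held from 1168 to 7052 UMIs with a median of 2196, one at 2 weeks from 634 to 7385 with a median of 2005, and one at 12 weeks from 590 to 4154 with a median of 1737. The median mitochondrial share was 2.26%, 1.91% and 1.67% of UMIs in the same order. A level is given in CPM, a gene's UMIs per 1000000 UMIs of the same set of cells. A count of 0 allows up to 6.90 CPM in the healthy capillary ECs, 5.78 at 2 weeks and 50.1 at 12 weeks, so the 12-week levels of low genes are coarse. The libraries shared at most 5 cell barcodes between any pair.

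The capillary ECs made up 17.1% of healthy ECs (interval 14.9 to 19.6%), 15.2% at 2 weeks (13.5 to 17.1%) and 13.5% at 12 weeks (9.50 to 18.5%). The 3 intervals overlapped. ECs as a whole were 26.1%, 69.1% and 30.8% of the cells captured, and the share of cells taken up on a gradient is not a share of the tissue. The rule counts UMIs, so deeper cells pass it more easily. When each EC was thinned to 1000 UMIs, 39 of 1015 healthy ECs passed (3.84%, 2.75 to 5.22%), 70 of 1224 at 2 weeks (5.72%, 4.48 to 7.17%) and 9 of 178 at 12 weeks (5.06%, 2.34 to 9.38%). The healthy share was thus the highest at the cells' own depth and the lowest at equal depth, and no order of the phases is read from these shares. Thinning left out 317 ECs at 2 weeks and 66 at 12 weeks that had fewer UMIs, and none of the healthy ECs.

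**Figure D1:**
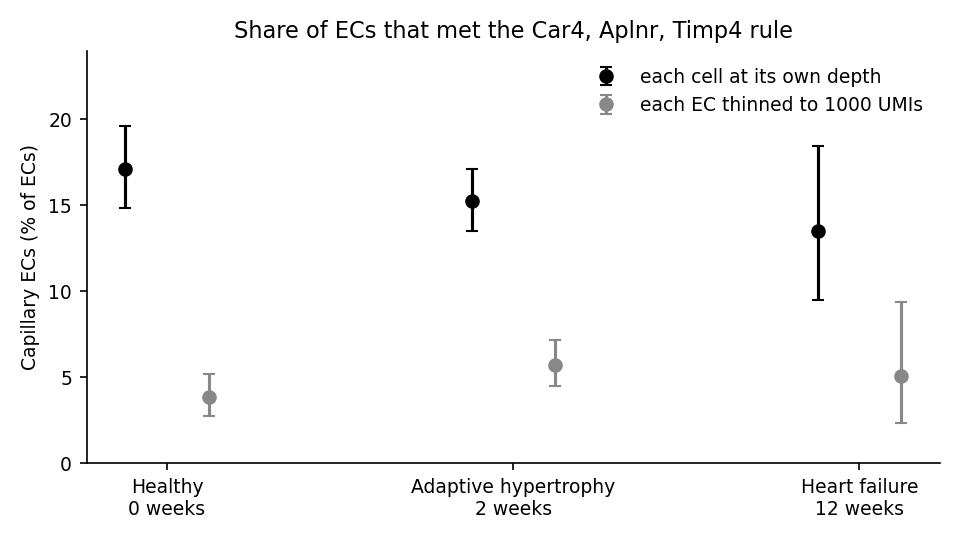
Share of ECs that met the rule in each library (y axis, percent of ECs; x axis, phase), at the cells' own depth (black) and after each EC was thinned to 1000 UMIs (grey); bars are exact 95% binomial intervals for counting error. The black points lie between 13.5% and 17.1% and the grey points between 3.84% and 5.72%, in a different order.

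Most capillary ECs carried the chosen genes in combination. All 3 genes were detected in 50 healthy cells, 37 cells at 2 weeks and 6 at 12 weeks, 2 genes in 89, 155 and 23, and 1 gene in 35, 43 and 4. *Car4* had a UMI in 70.7%, 71.5% and 81.8% of the cells, *Aplnr* in 62.1%, 75.7% and 75.8%, and *Timp4* in 75.9%, 50.2% and 48.5%. Among the cells chosen, *Timp4* was the most often detected of the 3 in the healthy phase and the least often detected in both TAC libraries. The rule counted these 3 genes, so the rates describe the choice and are no result about the phases. In cells gated as FBs, which should lack *Car4*, 0.345%, 0% and 3.09% had a UMI of it, at median depths of 3076.5, 2005 and 2674 UMIs. At 2 weeks that is 0 of 97 cells, which allows up to 3.09%.

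Between 33.3% and 40.8% of the capillary ECs in each library stood at exactly 3 marker UMIs, the lowest count the rule allows. They were set beside the ECs with 2 marker UMIs that met every other condition, on 5 genes that the rule did not use. The *Fabp4* level was 22762 CPM at 3 marker UMIs and 22935 at 2 in the healthy library, 27998 and 29051 at 2 weeks, and 27816 and 23235 at 12 weeks. *Aqp1* stood at 2503 and 2217, 1739.9 and 1474, and 3084 and 3599. *Cd36* stood at 2067 and 2793, 2820.0 and 2766, and 3084 and 3089, *Lpl* at 1011 and 914, 729 and 894, and 1142 and 595, and *Rgcc* at 1435 and 1426, 1713 and 1522, and 857 and 1927. None of the 5 genes was higher on the same side of the threshold in all 3 libraries, and the widest gaps were those of *Rgcc* and *Lpl* at 12 weeks, where 11 and 25 cells were compared. The condition on the marker minimum alone kept out 386, 886 and 152 ECs, so more ECs lay below the marker minimum and met all else than were selected. The other ECs named below are all ECs not selected, 841, 1306 and 211 cells, and include these. Their make-up differed between libraries: 31.6%, 16.7% and 6.97% of all ECs were over the limit on *Apln*, *Mest* and *Pcdh17*. What this make-up adds to ratios that involve the other ECs was not tested.

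The label was set beside vessel markers that the rule did not use. Of a list of 22 capillary markers other than *Car4* and *Timp4*, 21 were outside the rule, among them *Fabp4*, *Cd36*, *Gpihbp1*, *Rgcc* and *Tcf15*. Their summed level was 44426, 52035 and 49148 CPM in the capillary ECs and 29702, 40353 and 31761 in the other ECs of the same libraries, so the ratio was 1.5, 1.29 and 1.55. Markers of other vessels were lower in the capillary ECs in every library. Without the genes of the rule, the summed level of 12 arterial markers was 0.686, 0.613 and 0.615 times that of the other ECs, and that of 11 venous markers 0.538, 0.681 and 0.245 times. The 7 endocardial markers had 3, 11 and 0 UMIs, and the summed level of 9 lymphatic markers was 0.106, 0.361 and 0.275 times that of the other ECs. Within the lymphatic list, *Prox1*, the transcription factor that sets lymphatic fate, had 1, 0 and 0 UMIs. The proliferation genes *Top2a* and *Mki67* had 6, 2 and 0 and 4, 2 and 0 UMIs. The cells were chosen from these counts, so the sums describe them and are no test of the label.

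Genes of other cell types were present at low levels and differed between libraries. FB markers summed to 1021, 166 and 1218 CPM in the capillary ECs and to 1201, 216 and 1396 in the other ECs, against 59884, 45763 and 62420.8 in FBs. Of these 13 markers 10 were outside the gates that separated ECs from FBs, so part of the gap to FBs was set by the gates. Cardiomyocyte (CM) markers summed to 2066, 1154 and 734 in the capillary ECs and to 1456, 1128 and 551 in the other ECs. The CM markers *Tnnt2* and *Myl3* had 75 and 79 UMIs in the healthy capillary ECs, and 4 and 2 at 12 weeks. Haemoglobin genes summed to 9.20, 13.5 and 66.8. Where these genes appear below, the part of free RNA or of attached cells in them was not tested.

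Beside other ECs, *Aqp1*, *Slc28a2*, *Ramp3*, *Fmo1* and *Ndufa8* were higher in the capillary ECs in every library at the cells' own depth. Of 1216 genes whose mean level over both kinds of EC was at least 100 CPM in every library, 5 were past 1.5-fold higher in all 3 libraries, which is 0.411%, and 9 were past 1.5-fold lower, which is 0.74%. Within a single library, 32 genes were higher and 30 lower in the healthy phase, 12 and 25 at 2 weeks, and 154 and 142 at 12 weeks, where few cells carry the counts. With mitochondrial, ribosomal and haemoglobin genes left out of the total and of the genes compared, 4 genes were higher and 13 lower in all 3 libraries. The cells were chosen from these counts, so the values describe them and are no test.

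*Aqp1*, the water channel of continuous capillaries, stood at 2797 CPM in the healthy capillary ECs, 1792 at 2 weeks and 3488 at 12 weeks, against 1473, 1107 and 1546 in the other ECs. The ratio was 1.90 (1.78 to 2.03), 1.62 (1.5 to 1.74) and 2.26 (1.92 to 2.65). *Slc28a2*, a sodium-coupled nucleoside transporter, had 93, 104 and 17 UMIs, and its ratio was 2.30 (1.79 to 2.93), 1.70 (1.35 to 2.13) and 1.67 (0.916 to 2.90). For *Slc28a2* at 12 weeks the interval reached below 1. *Ramp3*, a partner of the adrenomedullin receptor, showed ratios of 1.92, 1.75 and 1.54, and *Fmo1*, a flavin-containing monooxygenase, 1.72, 1.53 and 2.30. *Ndufa8*, a subunit of respiratory complex I, completed the 5 genes with ratios of 1.60, 1.52 and 1.64. When each EC was thinned to 1000 UMIs, which left 9 capillary ECs at 12 weeks, 3 of the 5 changed direction, with log2 ratios of -0.72 for *Slc28a2*, -6.90 for *Ramp3* and -8.52 for *Ndufa8* at 12 weeks and -0.02 for *Ramp3* at 2 weeks. The 12-week values of *Ramp3* and *Ndufa8* are those of genes with no UMI left in the 9 cells. Their size was set by the 1 CPM added to each level. Of the 47 genes of the nuclear respiratory chain list that were compared, 11 were higher and 2 lower in all 3 libraries, against 22.8% higher and 19.7% lower among all 1216 genes, and the list's median log2 ratio was 0.07, 0.01 and 0.05.

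Just under the 1.5-fold limit, which applies after 1 CPM is added to each level, came *Lpl*, *Scarb1*, *Dhrs3*, *Cdkn1c*, *Cyp4b1*, *Ccdc85a* and *Hpcal1*. *Scarb1*, the receptor that takes up cholesterol esters from high-density lipoprotein, had 96, 129 and 10 UMIs in the capillary ECs. Its ratio to the other ECs was 1.5 (1.19 to 1.88), 1.5 (1.22 to 1.83) and 1.54 (0.685 to 3.14). The ratio was nearly the same in the 3 libraries, and the 12-week interval spanned 1. *Cdkn1c*, which encodes an inhibitor of cyclin-dependent kinases, showed 1.75, 1.49 and 1.51, and *Dhrs3*, which reduces retinaldehyde, 1.92, 1.49 and 1.72. *Tcf15*, a transcription factor that acts with MEOX2 in heart capillaries, showed 1.81 (1.60 to 2.05), 1.42 (1.28 to 1.58) and 1.54 (1.14 to 2.05).

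Several of the genes lower in the capillary ECs are known from large vessels. *Mgp*, matrix Gla protein of arteries, had 56, 19 and 14 UMIs and a level 0.0915, 0.0473 and 0.0536 times that of the other ECs. *Igfbp5* had 13, 5 and 1 UMIs, *Clu* 7, 19 and 3, and *Eln*, elastin, 16, 30 and 3. Elastin was 0.208, 0.327 and 0.186 times as high as in the other ECs. *Vcam1*, the adhesion molecule that leukocytes bind, had 14, 44 and 1 UMIs, and its ratio of 0.167, 0.641 and 0.0488 was the most uneven of these genes across the libraries. *Vim*, the filament protein vimentin, had the most UMIs of the 9, 498, 554 and 40 UMIs and ratios of 0.548, 0.660 and 0.364. *Fxyd5*, *Glul* and *Stmn2* were the other 3.

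**Figure D2:**
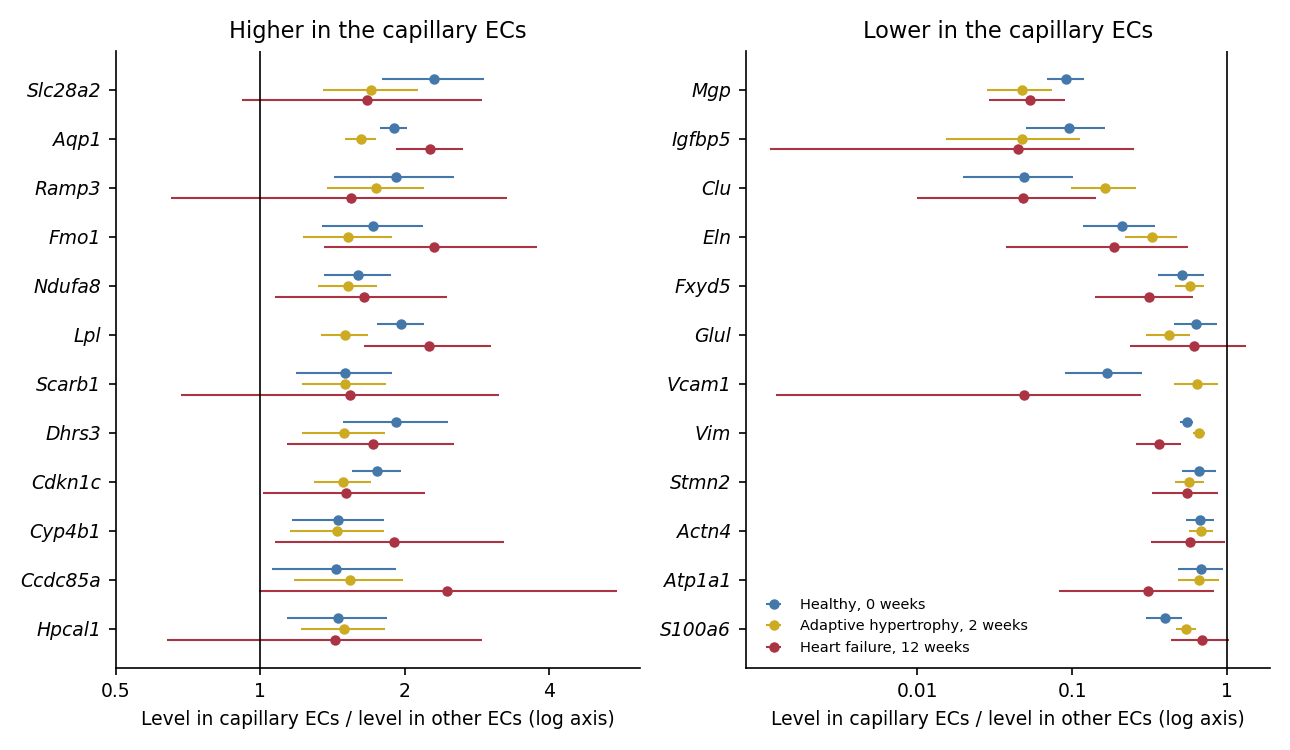
Level in the capillary ECs divided by the level in the other ECs of the same library (x axis, log scale) for the 12 highest and the 12 lowest genes, ranked by their smallest difference over the 3 libraries; bars are 95% intervals for counting error. *Aqp1* lies at 1.90, 1.62 and 2.26, and *Mgp* at 0.0915, 0.0473 and 0.0536; the bars are widest at 12 weeks, where 33 cells were available.

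Genes of the fatty acid pathway were higher in the capillary ECs than in the other ECs. Of 27 genes on the list, the 6 that could be compared in every library were all higher in the capillary ECs in all 3, where 22.8% of all genes were, and the median log2 ratio was 0.48, 0.35 and 0.82. Most of these 6 are also markers of capillary ECs, and the list was chosen with earlier results of these data known. The summed level of the list was 32017, 40795 and 35279.8 CPM in the capillary ECs and 21442, 31088 and 21948 in the other ECs. *Fabp4*, the binding protein that carries fatty acids in the cytoplasm, made up most of it, with 10302, 16031 and 1469 UMIs.

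*Fabp4* was detected in every capillary EC of every library, at 23700.2, 30885 and 24516 CPM. The ratio to the other ECs was 1.56 (1.52 to 1.59), 1.32 (1.30 to 1.35) and 1.58 (1.49 to 1.67). The smaller ratio at 2 weeks came with a higher *Fabp4* level in both kinds of EC. Against the healthy phase *Fabp4* at 2 weeks was 1.30 times as high in the capillary ECs (1.27 to 1.34) and 1.53 times in the other ECs, and at 12 weeks 1.03 times (0.979 to 1.09) and 1.02 times.

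*Fabp5*, its relative, stood at 1505, 2599 and 1535 CPM, and the ratio to the other ECs was 1.14, 1.53 and 1.81. *Cd36*, the fatty acid uptake protein, stood at 2353, 2851 and 3288, with ratios of 1.31, 1.23 and 1.74. *Gpihbp1*, which anchors lipoprotein lipase on capillaries, stood at 1574, 2113 and 2553, with ratios of 1.38, 1.22 and 1.80. All 3 genes were further above the other ECs at 12 weeks than at 0 weeks. *Lpl*, the lipase itself, had 395, 395 and 61 UMIs and stood at 909, 761 and 1018 CPM. Its ratio was 1.96 (1.75 to 2.20), 1.5 (1.34 to 1.68) and 2.25 (1.65 to 3.03).

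Between phases only 6 of the 27 genes could be compared. None of the 6 was past 2-fold at 2 or 12 weeks against 0, where 2.64% of all genes were past 2-fold higher and 2.57% lower at 2 weeks, and 5.24% and 6.8% at 12 weeks, so a count of 0 among 6 is near the background. The median log2 ratio was 0.33 at 2 weeks and 0.31 at 12 weeks, beside 0.01 and 0.04 for all genes, and 0.36 and 0.05 for the same genes in the other ECs. *Aqp7*, the glycerol channel of capillary ECs, is on the capillary list and stood at 260.0, 387 and 651 CPM. It was 1.49 times (1.18 to 1.89) as high at 2 weeks and 2.5 times (1.69 to 3.63) at 12 weeks as at 0, and in the other ECs 1.57 and 1.86 times. *Cd300lg*, a mucin-like glycoprotein of capillary ECs, went from 179 to 384 to 72 UMIs, or 412 to 739.8 to 1202 CPM. Its 12-week level was 2.92 times the healthy one (2.19 to 3.86), against 2.10 times in the other ECs.

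**Figure D3:**
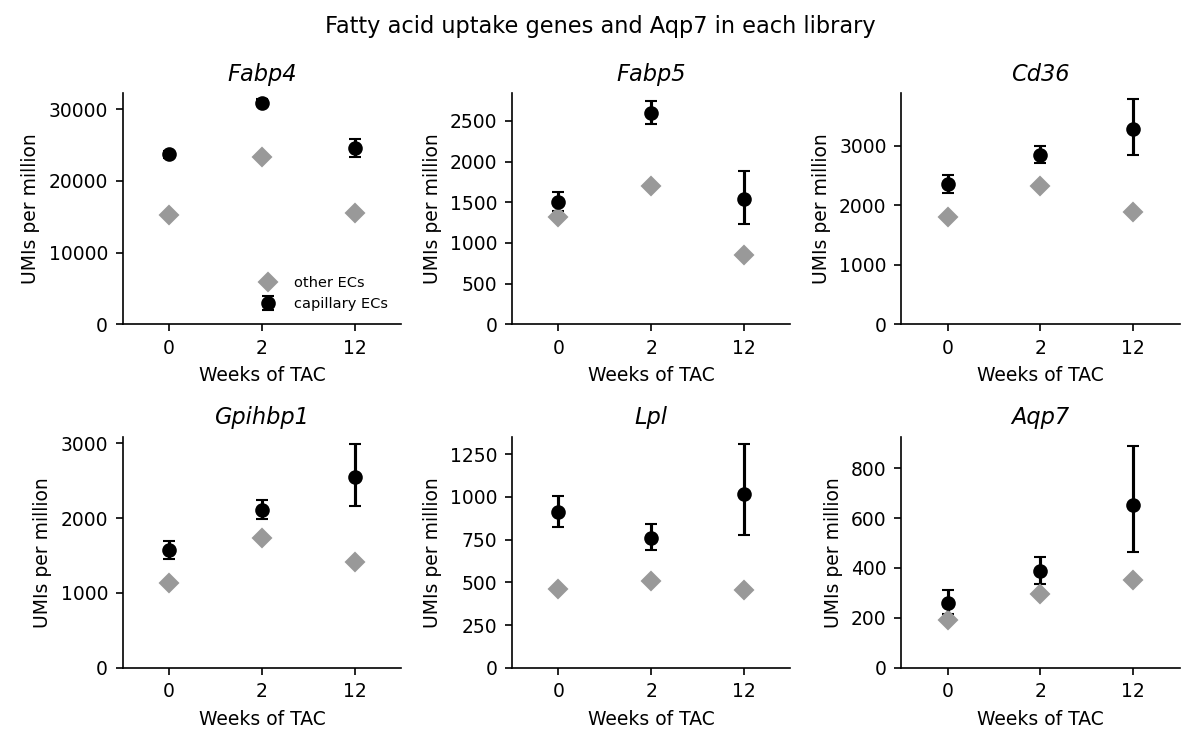
Level in CPM (y axis, linear from 0) at 0, 2 and 12 weeks of TAC (x axis) for 5 fatty acid uptake genes and *Aqp7*, in the capillary ECs (black, with 95% intervals for counting error) and the other ECs (grey diamonds). The black point lies above the grey one in each of the 3 libraries for all 6 genes; *Fabp4* peaks at 2 weeks in both kinds of EC, at 30885 and 23341.

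The 2-week library differed from the healthy one in few capillary genes, among them genes of the vessel's matrix and antigen presentation. Of 1480 genes with a mean of at least 100 CPM and 50 UMIs, 39 were past 2-fold higher, which is 2.64%, and 38 past 2-fold lower, which is 2.57%. In the other ECs 45 of 1521 were higher and 36 lower. Of the 39, 16 carried only provisional symbols and are not named.

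*Sox18*, a transcription factor of blood and lymphatic vessel development, led the higher genes. It had 22 UMIs in 19 healthy cells, 157 UMIs in 100 cells at 2 weeks and 26 UMIs in 14 cells at 12 weeks, or 50.6, 302 and 434 CPM. Against the healthy level the 2-week ratio was 5.98 (3.81 to 9.81) and the 12-week ratio 8.57 (4.67 to 15.9). The other ECs showed nearly the same, with 5.44 and 8.06, so the difference was shared by ECs. *Sox7*, of the same family, had 40, 63 and 12 UMIs and ratios of 1.32 and 2.18.

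Most basement membrane genes compared were higher at 2 weeks. Of 10 genes compared at 2 weeks, 8 were above the healthy level, 2 past 2-fold against 2.64% of all genes, and the median log2 ratio was 0.71. *Hspg2*, perlecan, the heparan sulfate proteoglycan of basement membranes, had 139, 518 and 23 UMIs, or 319.8, 998 and 384 CPM, and was 3.12 times as high at 2 weeks (2.58 to 3.79) and 1.20 times at 12 weeks (0.737 to 1.87). *Col15a1*, the basement membrane zone collagen XV, had 35, 143 and 13 UMIs and ratios of 3.42 (2.35 to 5.10) and 2.69 (1.31 to 5.22). The collagen IV genes *Col4a1* and *Col4a2* were 1.75 (1.54 to 1.98) and 1.65 (1.40 to 1.94) times as high at 2 weeks. At 12 weeks against 0 only 5 genes could be compared, 2 of them above the healthy level, with a median log2 ratio of -0.36. From 2 to 12 weeks the list's median log2 ratio was -0.46 over 9 genes, and *Hspg2*, *Col4a1* and *Col4a2* were past 2-fold lower. The other ECs had medians of 0.51 at 2 weeks against 0 and -1.20 at 12 weeks against 2. The order of the libraries was not particular to ECs. The list summed to 10435.5, 13162 and 5490 CPM in FBs and 4609, 5594 and 3416 in mural cells. In blood cells it summed to 307, 200 and 220 CPM, a different order. *Col15a1* at 12 weeks stood at 217 CPM in the capillary ECs, on 13 UMIs, against 30.6 in the other ECs.

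Class I major histocompatibility (MHC) genes were higher in both TAC libraries. At 2 weeks 13 of 13 genes compared were above the healthy level, with a median log2 ratio of 0.60, and at 12 weeks 10 of 11, with 0.52. The median of all genes compared was 0.01 and 0.04, and that of the class I genes in the other ECs 0.75 and 0.64. Outside ECs, the list summed to 3026, 4422 and 5027 CPM in FBs and 8210, 9341 and 9885 in blood cells. In mural cells it summed to 2526, 2917 and 2511 CPM. The higher levels were therefore not confined to ECs. *H2-K1* stood at 729, 1557 and 1051 CPM, and *B2m*, the light chain that class I molecules need, at 3400.2, 5814 and 4889.8. *H2-Q7* was 3.94 times as high at 2 weeks (2.52 to 6.41), though genes of this family are so alike that counts can be shared between them. Of 16 interferon-stimulated genes compared at 2 weeks, none was past 2-fold in either direction, and the median log2 ratio was 0.36. Of all genes 2.64% were past 2-fold higher and 2.57% lower, so a count of 0 among 16 is near the background. At 12 weeks, of 11 compared, *Ly6c1* was 2.21 times as high (1.95 to 2.5) and *Isg15* 0.259 times (0.103 to 0.544). Of all genes 5.24% were past 2-fold higher and 6.8% lower.

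Other genes past 2-fold higher at 2 weeks were *Zyx*, the focal adhesion protein zyxin (3.70 times, other ECs 1.35), *Sdc3*, a heparan sulfate proteoglycan of the cell surface (3.28 times, other ECs 3.25), and *Tspan4*, a tetraspanin (2.96 times, other ECs 2.25). *Wdr89* was higher as well. *Podxl*, a sialomucin of the luminal surface, was 2.71 times as high (2.16 to 3.41). *Cldn5*, the main endothelial claudin of tight junctions, was 0.420 times as high (0.352 to 0.499), from 393 UMIs to 197, and 0.646 times at 12 weeks. In the other ECs *Cldn5* was at 0.546 and 1.07 times.

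The 8 lowest ratios at 2 weeks were those of *Dcn*, *Gsn*, *Slfn5*, *Malat1*, *Lgals1*, *Ceacam1*, *Fkbp4* and *Dnaja1*. *Dcn*, the FB proteoglycan decorin, went from 106 UMIs to 8 and to 17 at 12 weeks, and *Gsn*, gelsolin, went from 171 to 18 to 38. The other ECs had ratios of 0.0645 and 0.0685 for the pair at 2 weeks, beside 0.0632 and 0.0882 in the capillary ECs. Both genes are on the FB marker list, so its sum moves with them in part by construction. That sum was 1021, 166 and 1218 CPM in the capillary ECs, on 444, 86 and 73 UMIs. FBs made up 1160, 97 and 162 cells of the libraries. The part of FB RNA in these values was not tested. *Slfn5*, a gene of the schlafen family, had 213, 70 and 17 UMIs and was 0.275 times (0.207 to 0.362) as high at 2 weeks, against 0.461 times in the other ECs. *Lgals1*, galectin 1, was at 0.317 times, *Ceacam1*, an adhesion molecule, at 0.333 times and *Fkbp4*, a cochaperone of HSP90, at 0.342 times. *Malat1*, a long noncoding RNA kept in the nucleus, stood at 48845, 14958 and 32709.7 CPM, and in the other ECs at 52969.6, 13800.1 and 31585. A level in CPM is a share of the total, to which *Malat1* belongs.

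Most heat shock genes compared were lower in both TAC libraries than in the healthy one. Of 16 genes, 11 were compared at 2 weeks, where 5 were past 2-fold lower, against 2.57% of all genes, and the median log2 ratio was -0.96. At 12 weeks 12 were compared, 7 were past 2-fold lower, against 6.8% of all genes, and the median was -1.18. No heat shock gene was past 2-fold higher against the healthy phase. The other ECs had medians of -0.83 and -0.67. The summed level of the list was 22987, 11317 and 9179 CPM in the capillary ECs and 19561, 11464 and 11289.5 in the other ECs. It was 11073, 8555 and 9137 CPM in FBs, 16590, 10707 and 8192 in blood cells and 13075, 11874 and 11465 in mural cells. The lower levels in the TAC libraries were therefore not confined to ECs.

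The inducible HSP70 genes had the lowest ratios of the list's genes compared at 12 weeks, and not at 2 weeks. *Hspa1a* had 1859 UMIs in 156 of 174 healthy cells, 1153 in 156 of 235 cells at 2 weeks and 25 in 9 of 33 cells at 12 weeks. Its level of 4277, 2221 and 417 CPM was 0.519 times the healthy one at 2 weeks (0.482 to 0.559) and 0.0976 times at 12 weeks (0.0630 to 0.144). The other ECs were at 2772, 2011 and 1126, or 0.726 and 0.406 times. *Hspa1b* had 162, 203 and 2 UMIs and was at 1.05 times the healthy level (0.849 to 1.30) at 2 weeks and 0.0896 times (0.0108 to 0.329) at 12. These genes are near-identical copies, so the split of reads between them is uncertain. Together they stood at 4649, 2612 and 451 CPM, 0.562 times (0.524 to 0.602) and 0.0969 times (0.0637 to 0.141) the healthy level.

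The chaperones *Hspa8*, *Hsp90aa1* and *Hsp90ab1* and the cochaperone *Dnaja1* were further below the healthy level than *Hspa1a* at 2 weeks, and nearer to it at 12. *Hspa8* stood at 4718, 2131 and 1902 CPM, *Hsp90aa1* at 2013, 952 and 768, *Hsp90ab1* at 3902, 1597 and 2253, and *Dnaja1* at 2139.5, 742 and 651. *Hspb1*, the small heat shock protein, stood at 3349.6, 2027 and 1619, and was 0.605 times (0.558 to 0.655) and 0.483 times (0.389 to 0.594) the healthy level, against 0.744 and 0.810 times in the other ECs. *Hspa5* and *Hsp90b1*, the chaperones of the endoplasmic reticulum, were at 0.472 and 0.512 times at 2 weeks and at 0.739 and 1.15 times at 12 weeks. *Hsph1* had 59, 26 and 0 UMIs, which is at least 2.71-fold lower at 12 weeks than at 0 with 3 UMIs allowed for the count of 0. Of the chaperones named here, *Hspa1b* at 2 weeks and *Hsp90b1* at 12 weeks were not below the healthy level.

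Heat shock genes share a short promoter element to which heat shock factors bind, made of inverted GAA units. The promoters of *Hspa1a*, *Hspa1b* and *Hspb1* are shown, 3 genes past 2-fold lower at 12 weeks whose windows hold an inverted pair of units. They were taken from RefSeq on build GRCm38.p6, from 250 bases before to 50 bases after the start of the gene. *Dnaja1* and *Dnajb1* were past 2-fold lower as well and are not shown. Capitals mark each inverted pair of units, searched as GAANNTTC or TTCNNGAA, which read the same on both strands and can overlap. The *Hspa1a* window is chr17:34972107-34972406 on the minus strand, that of *Hspa1b* chr17:34959189-34959488 on the minus strand, and that of *Hspb1* chr5:135887669-135887968 on the plus strand.
Hspa1a: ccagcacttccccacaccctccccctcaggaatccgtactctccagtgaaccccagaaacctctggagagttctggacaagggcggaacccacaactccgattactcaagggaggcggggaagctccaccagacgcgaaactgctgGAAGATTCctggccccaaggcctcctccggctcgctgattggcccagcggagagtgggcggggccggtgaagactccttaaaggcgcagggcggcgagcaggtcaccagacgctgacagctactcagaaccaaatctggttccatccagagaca
Hspa1b: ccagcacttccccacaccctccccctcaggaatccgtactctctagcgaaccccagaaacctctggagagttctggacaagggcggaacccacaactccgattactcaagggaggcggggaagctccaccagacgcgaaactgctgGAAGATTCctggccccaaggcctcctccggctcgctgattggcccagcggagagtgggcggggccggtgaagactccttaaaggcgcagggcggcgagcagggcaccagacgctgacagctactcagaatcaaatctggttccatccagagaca
Hspb1: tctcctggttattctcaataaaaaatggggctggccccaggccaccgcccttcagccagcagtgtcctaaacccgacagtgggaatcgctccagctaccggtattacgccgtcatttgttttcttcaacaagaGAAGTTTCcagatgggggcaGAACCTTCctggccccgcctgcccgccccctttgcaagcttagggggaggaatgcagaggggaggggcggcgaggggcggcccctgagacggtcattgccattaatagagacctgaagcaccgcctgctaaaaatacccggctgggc

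The *Hspa1a* and *Hspa1b* windows were identical at 296 of 300 bases, and in both the pair began 104 bases before the gene start. *Hspb1* held 2 pairs, the first 117 bases before the start. Of 16 heat shock genes 12 had a promoter entry, and 9 of these had at least 1 pair, as did 10 of their 17 entries, against 15.1% of all 32851 promoter entries. The genes with an entry and no pair were *Dnajb1*, *Hsp90b1* and *Hspa5*, and *Dnaja1* had a pair in only 1 of its entries. The longer run of 3 units, GAANNTTCNNGAA or TTCNNGAANNTTC, was present for *Hspd1*, *Hspe1* and *Hsph1*, and in 0.603% of all entries. The windows of *Hspd1* and *Hspe1* overlap, at chr1:55087883-55088182 and chr1:55087898-55088197, so the same stretch is counted for both genes. *Hspd1* had 53, 35 and 8 UMIs and *Hspe1* 100, 111 and 12, with ratios at 12 weeks of 1.10 (0.450 to 2.32) and 0.871 (0.435 to 1.59). *Hsph1* had 0 UMIs at 12 weeks, as given above. The motif was chosen after the values were seen, and a match of letters is not a bound site. *Hsp90aa1*, *Hsp90ab1*, *Hspa8* and *Cryab* had no promoter entry and were not searched, though *Hspa8* and *Hsp90aa1* were past 2-fold lower at 12 weeks.

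Immediate early genes, which cells switch on within minutes of a stimulus, were lower at 12 weeks. Of 18 compared, 13 were below the healthy level at 2 weeks with a median log2 ratio of -0.19, and 15 at 12 weeks with -0.66. At 12 weeks *Atf3*, *Jun*, *Fosb*, *Btg1*, *Fos* and *Ier3* were past 2-fold lower, which is 6 of 18 against 6.8% of all genes, and none was past 2-fold higher, against 5.24%. The other ECs had medians of -0.12 and -0.12. *Fos* stood at 6156, 4281 and 2336 CPM in the capillary ECs and at 5079, 4322 and 4791 in the other ECs. Its ratio at 12 weeks was 0.380 (0.318 to 0.450), beside 0.943 in the other ECs. *Atf3* had 664, 353 and 18 UMIs, and *Fosb* 337, 273 and 12. With 1 library per phase the difference between the 2 kinds of EC has no test. What the warm digestion added to the levels of immediate early or heat shock genes was not tested.

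The flow-responsive transcription factors *Klf2* and *Klf4* followed the same order. *Klf2* stood at 5471, 3820.4 and 2603 CPM, 0.698 times (0.658 to 0.741) and 0.476 times (0.402 to 0.560) the healthy level, and the other ECs at 0.797 and 0.834 times. *Klf4* was at 0.640 and 0.425 times, and *Klf6* at 0.470 and 0.436 times. *Hes1*, a target of Notch signaling, had 523, 568 and 23 UMIs and was 0.910 times (0.806 to 1.03) the healthy level at 2 weeks and 0.319 times (0.200 to 0.484) at 12 weeks. *Notch1* had 54, 90 and 3 UMIs, and at 12 weeks the other ECs held *Hes1* and *Notch1* at 0.866 and 1.12 times. *Bhlhe40*, a transcriptional repressor of the clock, had 73, 104 and 0 UMIs, at least 3.35-fold lower at 12 weeks than at 0 and at least 4.00-fold lower than at 2.

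These groups varied widely from cell to cell within a library. The heat shock list took from 0.350% to 5.4% of a healthy capillary EC's UMIs with a median of 2.05%, from 0% to 7.94% at 2 weeks with a median of 0.845%, and from 0.307% to 2.02% at 12 weeks with a median of 0.771%. The immediate early list took from 0.156% to 10.3% with a median of 3.11%, from 0.268% to 7.90% with a median of 2.35%, and from 0.282% to 6.20% with a median of 0.944%. The ranges overlapped between all libraries. The medians in the other ECs were 1.81%, 0.871% and 0.978% for heat shock and 2.98%, 2.47% and 1.98% for immediate early genes. At 12 weeks the capillary median for immediate early genes was below that of the other ECs, and in the healthy phase slightly above it.

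**Figure D4:**
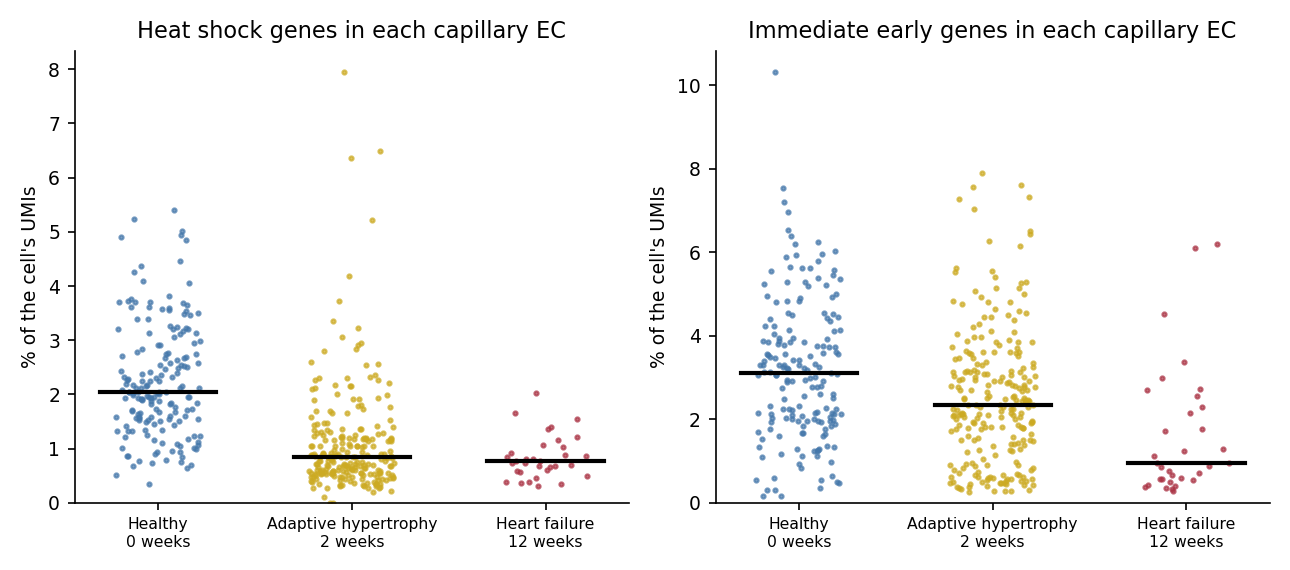
Share of each capillary EC's UMIs (y axis, percent) that belongs to the heat shock list (left) and the immediate early list (right) in the 3 libraries (x axis); each point is a cell and the black line is the median. The heat shock medians are 2.05%, 0.845% and 0.771%, the immediate early medians 3.11%, 2.35% and 0.944%, and the cells of the libraries overlap.

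At 12 weeks more genes stood past 2-fold, on far fewer UMIs. Against the healthy phase 74 of 1412 genes were higher, which is 5.24%, and 96 lower, which is 6.8%. In the other ECs 81 were higher and 48 lower of 1585. With mitochondrial, ribosomal and haemoglobin genes left out of the total and of the genes compared, 59 were higher and 129 lower. The balance of directions thus depended on the scale and the genes compared. These genes took 18.0%, 21.1% and 14.6% of the capillary ECs' UMIs in the 3 libraries. Against 2 weeks 88 of 1522 genes were higher, which is 5.78%, and 66 lower, which is 4.34%. Leaving the same genes out in this way gave 57 higher and 104 lower. It moved the log2 ratios of the remaining genes by about -0.11 and also changed which genes were compared. Setting the median gene to a ratio of 1 gave 67 and 87. In the other ECs 46 were higher and 25 lower of 1562.

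*Ccdc85b* (5.96 times, other ECs 10.1), *Grcc10* (5.06 and 4.93) and *Serinc3* (4.07 and 3.16) were among the genes with the highest ratios and were higher in both kinds of EC. *Igfbp3*, a binding protein for insulin-like growth factors, had 34, 51 and 17 UMIs and was 3.63 times (1.90 to 6.68) as high at 12 weeks, against 1.83 times in the other ECs. *Rassf9* (5.96 times), *Pgrmc1* (3.45 times) and *Hist1h1c* were also among the genes highest by ratio. *Emcn*, endomucin, a sialoglycoprotein of capillaries and veins, stood at 651, 952 and 1352 CPM and was 2.08 times (1.60 to 2.67) as high at 12 weeks, against 1.21 times in the other ECs.

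The lower genes at 12 weeks were led by those already described, with *Gadd45b* (108, 81 and 2 UMIs), *Ncl*, nucleolin (112, 102 and 3 UMIs), *Phlda1* (165, 118 and 5 UMIs) and *Rrbp1* (157, 83 and 5 UMIs) among them. *Myl3*, a myosin light chain of CMs, went from 181.7 CPM to 69.4 and 33.4. The summed CM markers, which include it, stood at 2066, 1154 and 734. The part of CM RNA in this was not tested. Further list genes past 2-fold lower at 12 weeks against 0 were *Adamts1* (0.307 times), *Dnajb1* (0.267 times), *Tmsb10* (0.418 times), *Nfkbia* (0.445 times), *Ccnd2* (0.447 times) and *Cdkn1a* (0.468 times), and past 2-fold higher *Txnip* (2.44 times), *Ltbp4* (2.11 times) and *H2-Q4* (2.66 times). From 2 to 12 weeks *Gsn*, *Ccdc85b*, *Rassf9*, *Vwa1*, *H13*, *Lpar6* and *Bub3* were among the genes with the highest ratios. *Bhlhe40*, *Hspa1b*, *Hspa1a*, *Ier3*, *Ncl*, *Cxcl1*, *Notch1* and *Tnfsf9* had the lowest, each on at most 25 UMIs at 12 weeks. *Ier3* went from 406 to 666 to 16 UMIs, so its 12-week level was 0.286 times the healthy one (0.162 to 0.470), and the chemokine gene *Cxcl1* went from 69 to 135 to 4.

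**Figure D5:**
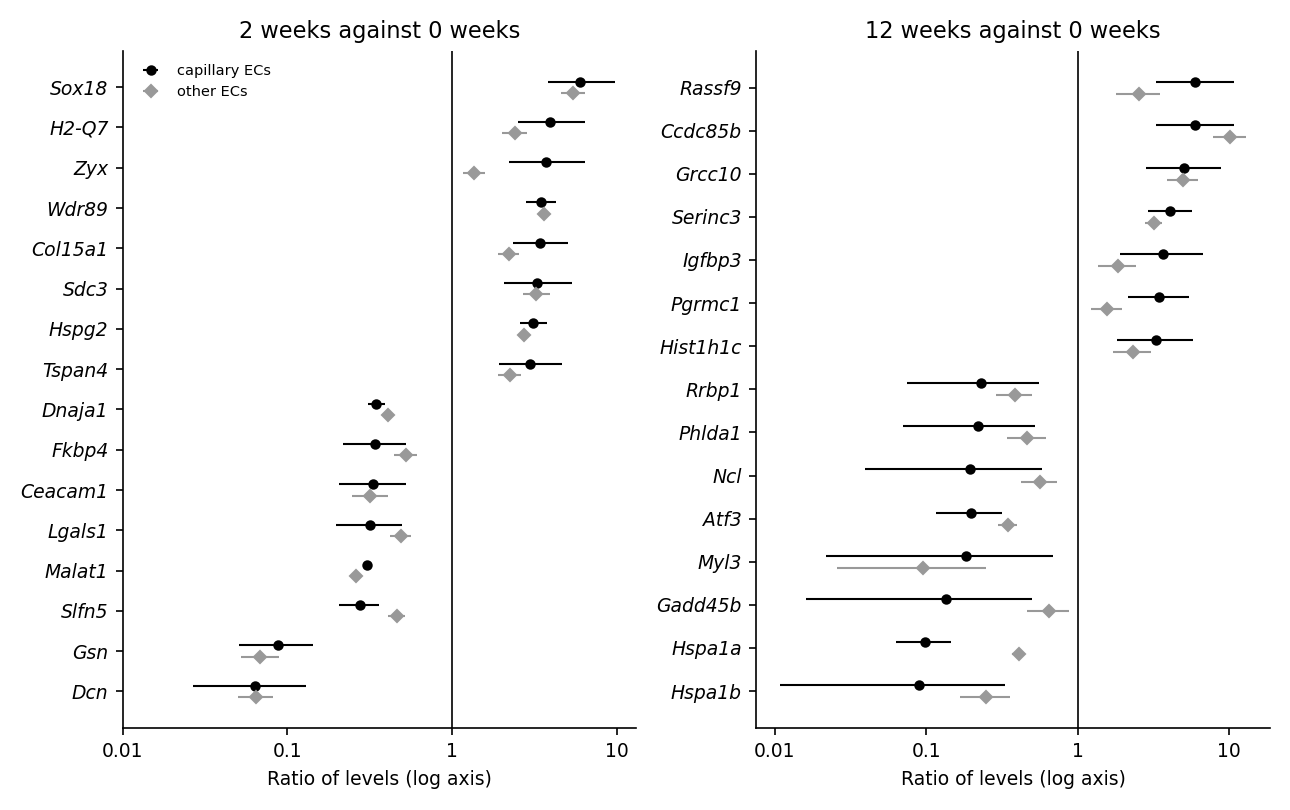
Ratio of the level at 2 weeks (left) or 12 weeks (right) to the level at 0 weeks (x axis, log scale) for the genes named among the 8 highest and the 8 lowest ratios, in the capillary ECs (black) and the other ECs (grey diamonds); bars are 95% intervals for counting error. *Sox18* lies at 5.98 and 5.44 on the left, and *Hspa1a* at 0.0976 and 0.406 on the right.

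Lists of general EC genes differed in how many members were past 2-fold. Of 15 endothelial transcription factors compared at 12 weeks against 0, *Sox7* was past 2-fold higher and *Klf2*, *Klf4* and *Klf6* lower. Of 8 genes compared from a list of tip cell and angiogenic activation genes, *Emcn* was higher and *Apold1* (198, 197 and 9 UMIs) lower. Of all genes 5.24% were higher and 6.8% lower. Of 14 junction and adhesion genes *Jam3* (2.57 times) was higher. The receptors for vascular endothelial growth factor and angiopoietins showed no gene past 2-fold among 6 compared, with a median log2 ratio of 0.06 at 2 weeks and -0.0017 at 12, both of which changed sign when the cells were thinned (-0.03 and 0.03). *Flt1* stood at 819, 930.5 and 818 CPM, *Tie1* at 322, 429.6 and 417, and *Tek* at 143, 200.4 and 250.3. The caveolae list also had no gene past 2-fold among 6, which is near the background for so few genes, and *Cav1*, the scaffold of caveolae, stood at 1829, 1971 and 2053. Of 48 nuclear respiratory chain genes compared at 2 weeks none was past 2-fold, where 2.64% of all genes were higher and 2.57% lower. At 12 weeks *Ndufb4* (2.07 times) and *Uqcrh* (0.471 times) were the 2 of 47. The capillary list itself had a median log2 ratio of 0.17 at 2 weeks and 0.36 at 12, with *Aqp7* and *Cd300lg* past 2-fold higher and *Hspb1*, which is on both lists, past 2-fold lower at 12 weeks.

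Inside each library, the ratio of variance to mean of most genes was near that of counting alone at 1000 UMIs per cell. Over 1050 genes in cells thinned to 1000 UMIs, the median ratio of variance to mean was 1.05, 1.06 and 1.03, where random sampling of molecules gives about 1. Genes were kept from a mean of 0.1 UMI per thinned cell. At such low means the ratio stays near 1 even where cells differ, so it cannot show that they do not. It was at least 2 in 28, 29 and 40 genes, 12 of them in all 3 libraries. *Malat1* had the highest ratios (6.23, 9.45 and 9.79), followed by *Actb* (3.73, 5.59 and 5.69), *Fos* (3.58, 3.84 and 3.65), *Fabp4* (3.39, 3.78 and 3.83), *Klf2* (3.52, 3.45 and 2.81), *Junb*, *Tmsb4x* and *Cxcl12* (3.36, 2.23 and 4.23). By this ratio immediate early genes and *Fabp4* ranked high. For the same relative spread the ratio rises with a gene's level, so it does not rank genes by relative unevenness. *Malat1* and *Fabp4* had means of 49.9 and 24.6 UMIs per thinned healthy cell, against 6.11 for *Fos*.

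The capillary ECs were last set beside their closest neighbours, ECs that met every condition except the limit on *Apln*, *Mest* and *Pcdh17*. There were 151 such cells in the healthy phase, 100 at 2 weeks and 8 at 12 weeks, too few for levels at 12 weeks. Of 1292 genes, 7 were past 1.5-fold higher in the capillary ECs and 13 past 1.5-fold lower in both libraries. *Cxcl12*, a chemokine, was 1.80 times (1.63 to 1.99) as high in the healthy phase and 1.59 times (1.40 to 1.81) at 2 weeks, and *Gas6*, a ligand of TAM receptors, 1.69 and 1.56 times. *Dhrs3* and *Slc28a2*, above the other ECs as well, were at 1.89 and 1.64 times and at 1.56 and 1.59 times. Lower were *Fxyd6* (0.485 and 0.458 times), *Adm*, the vasodilator peptide adrenomedullin (0.564 and 0.432 times), *Marcksl1* (0.574 and 0.472 times) and *Vim* (0.515 and 0.617 times). Deeper cells go over a UMI limit more easily, and the neighbours held more UMIs per cell than the capillary ECs in both libraries. Both kinds of cell were chosen from these counts, so the values describe the choice and are no test. With or without failing another condition, 31.6%, 16.7% and 6.97% of all ECs were over that limit.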

How the data were processed

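Non-cardiomyocytes of mouse ventricles were measured by droplet-based single-cell RNA-seq 0, 2 and 12 weeks after TAC, each phase as 1 library. The authors sequenced 3' libraries and deposited raw UMI counts for 27998 genes, without normalization. The submitters' processing notes name Cell Ranger 2.0.0 and the mouse build mm10. Counting in a droplet library sees the 3' end, so levels are not split by isoform, and free RNA can add UMIs to a cell.

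Cells with at least 200 genes were kept and the capillary ECs were selected by UMI thresholds. The members, the gene lists and the comparisons were chosen with earlier results of these data known. UMIs were summed over the cells of a group and scaled to 1000000 UMIs per group (CPM). Intervals were exact Poisson for a level, exact conditional binomial for a ratio and exact Clopper-Pearson for a share, all at 95% and for counting error only. With 1 library per phase there is no test and no p-value. Genes past 2-fold between phases were counted among those with a mean of at least 100 CPM and 50 UMIs, and against other ECs those past 1.5-fold the same way in all 3 libraries, on log2 ratios with 1 CPM added. Ratios printed for a gene have nothing added. Genes of the selection rule were left out of these counts.

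Named genes were the 8 highest and 8 lowest ratios between phases, the 12 each way against other ECs ranked by their smallest difference, the 8 most variable, and from each of 38 lists with 638 genes those past 2-fold and up to 4 with the highest level. Provisional symbols and mitochondrial, ribosomal and haemoglobin genes were not named. The text describes only part of the genes that met these rules, and 1 gene is not reported here. *Hspd1*, *Hspe1*, *Hsph1* and other genes given with their values beside a list were chosen after the values were seen. No doublet was removed. Scrublet called 41, 3 and 1 doublets among the cells of the 3 libraries, and its highest scores were left out as an alternative. Promoters came from RefSeq. Python 3.11.15 was used with numpy 2.4.6, scipy 1.17.1, pandas 2.3.3, scanpy 1.11.5 and matplotlib 3.10.9.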

Additional observations from a re-analysis of the deposited data

How the results depend on the processing

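The share of ECs selected in the healthy, 2-week and 12-week libraries was 3.842%, 5.719% and 5.056% when each EC was thinned to 1000 UMIs, 26.5%, 26.67% and 23.77% with at least 2 marker UMIs, and 10.15%, 9.15% and 9.016% with at least 4. The number of genes past 2-fold was 77 at 2 weeks against 0, 170 at 12 against 0 and 154 at 12 against 2. It was 30, 28 and 56 after thinning, which left 9 cells at 12 weeks, and 35, 93 and 73 with a mean of at least 200 CPM, which tests fewer genes. The 14 genes past 1.5-fold against other ECs in all 3 libraries became 25 with at least 2 marker UMIs, 9 with at least 4 and 5 at 200 CPM. After thinning, the log2 ratio at 12 weeks against 2 changed sign for *H13* (-5.455), *Bub3* (-5.455) and *Ncl* (0.6338). Against other ECs it changed sign for *Slc28a2* (-0.7182), *Ramp3* (-6.899), *Ndufa8* (-8.523) and *Dhrs3* (-0.1145) at 12 weeks, *Ramp3* at 2 weeks (-0.0185) and *Stmn2* in the healthy library (0.2417). The values of *H13*, *Bub3*, *Ramp3* and *Ndufa8* at 12 weeks are those of genes with no UMI left in the 9 cells. Their size was set by the 1 CPM added to each level. The cause of the other changes was not tested. Over the 12 alternatives, 518 of 528 values of the list medians at 2 or 12 weeks against 0 moved by no more than the interquartile range of the list's genes. In 30 of the 528 the median changed sign, 10 of them after thinning. These came from 15 of the 44 medians, none over 0.409 in size. The medians of the heat shock, immediate early, basement membrane, fatty acid and class I MHC lists were not among them. The depth of the 33 cells at 12 weeks limits every gene near the 50.1 CPM that a count of 0 allows. No paired analysis was possible because the labels give no replicate numbers and each phase is 1 library, so no replicate could be left out.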
